A study of Mus musculus with 7 samples.

Results

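The genes described here are 8 genes of prostaglandin E2 signalling: the phospholipase Pla2g4a, the cyclooxygenases Ptgs1 and Ptgs2, the synthase Ptges and the receptors Ptger1, Ptger2, Ptger3 and Ptger4. They were chosen for their roles in the pathway, with earlier results of these data known, out of 21900 protein-coding genes, and each was taken with all Fos peaks within 50 kb of its span in the mouse assembly GRCm38, which gave 31 of 68873 merged peak regions. Chromatin immunoprecipitation followed by sequencing (ChIP-seq) had been run on hippocampus of wild-type C57BL/6J mice aged 2 months by pulling down Fos, which pairs with Jun proteins to form the transcription factor AP-1. The 3 libraries of the control group came from mice given saline. The 3 libraries of the treated group came from mice given kainic acid, a glutamate receptor agonist that provokes seizures, in 2 intraperitoneal injections of 10 mg/kg set 30 min apart. These mice had reached seizure level 4, and tissue was taken 1 hour from the start of dosing. Animals per library are not stated, so p-values measure only the spread between these libraries, which may be technical. Only animals that reached this seizure level represent the treated group, and the tissue was whole hippocampus, so binding could not be assigned to a cell type.

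Prostaglandin E2 is made in 3 steps. Cytosolic phospholipase A2, encoded by Pla2g4a, frees arachidonic acid from membranes, the cyclooxygenases encoded by Ptgs1 and Ptgs2 turn it into prostaglandin H2, and microsomal prostaglandin E synthase, encoded by Ptges, converts that to prostaglandin E2. The product acts on the G protein-coupled receptors EP1, EP2, EP3 and EP4, encoded by Ptger1 to Ptger4. In the brain Ptgs2 is the inducible cyclooxygenase, found in excitatory neurons and raised by synaptic activity and seizures, and Ptgs1 is the cyclooxygenase of resting tissue and is rich in microglia.

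Peaks of the different libraries that overlapped were merged into regions, and a region that 2 or all 3 kainic acid libraries held is called a repeated region. Repeated regions lay near Pla2g4a, Ptges, Ptger4 and Ptgs2, and near none of Ptgs1, Ptger1, Ptger2 and Ptger3. Of all protein-coding genes, 62.7% had a repeated region within 50 kb. The best-ranked repeated regions lay inside Pla2g4a and inside the span of Ptges. These were the only 2 of the 31 regions found in all 3 kainic acid libraries. They made up 13.3% of the repeated regions near the 8 genes, against 44.4% over the genome. Ptgs2 had a region over its start site and another inside the gene, each in 2 kainic acid libraries, and the start region ranked low. A single saline peak lay within reach of any of the 8 genes, over Ddx39a, a neighbour of Ptger1. Of all protein-coding genes, 30.2% had a saline peak within 50 kb.

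The Ptgs2 start is shown first because it was the only start site of these genes that lay inside a Fos region. That region spans chr1:150099891-150100245, and the RefSeq start site of Ptgs2 on the plus strand is at 150100031. Positions before and after the start are counted from this annotated base, and where transcription begins was not measured. The 2 lines below give the 140 bases of the region before the start (chr1:150099891-150100030) and 30 bases just after it (chr1:150100033-150100062), 5′ to 3′ on the plus strand, from the RefSeq promoter table of GRCm38.p6. Capitals mark the matches to the motifs named below.
Ptgs2 upstream stretch: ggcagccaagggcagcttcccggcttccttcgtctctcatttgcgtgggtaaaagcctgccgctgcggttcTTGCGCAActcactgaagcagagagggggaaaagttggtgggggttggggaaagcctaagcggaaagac
Ptgs2 site after the start: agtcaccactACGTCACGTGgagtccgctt
Motifs were searched on both strands from 250 bases before to 50 bases after each start. The motif TGANTCA, the usual AP-1 site, did not occur in the windows of the 7 genes with an entry, nor did the full cyclic AMP response element TGACGTCA. Over the 17492 protein-coding genes with such a window, 8.12% held the first and 2.54% the second. Ptgs2 alone of the 7 held TGACGT, the first 6 bases of that element, on the minus strand at bases 13 to 18 after the start. It overlaps an E-box, CACGTG, at bases 17 to 22. It also held the C/EBP palindrome TTGCGCAA at 69 to 62 bases before the start. Shares over all genes were 9.6% for TGACGT, 8.91% for CACGTG and 0.246% for TTGCGCAA. The last 3 motifs were chosen after the Ptgs2 sequence had been read, and a match is a string of letters, not a measured site. Ptger1 has no entry in the promoter table.

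**Figure D1:**
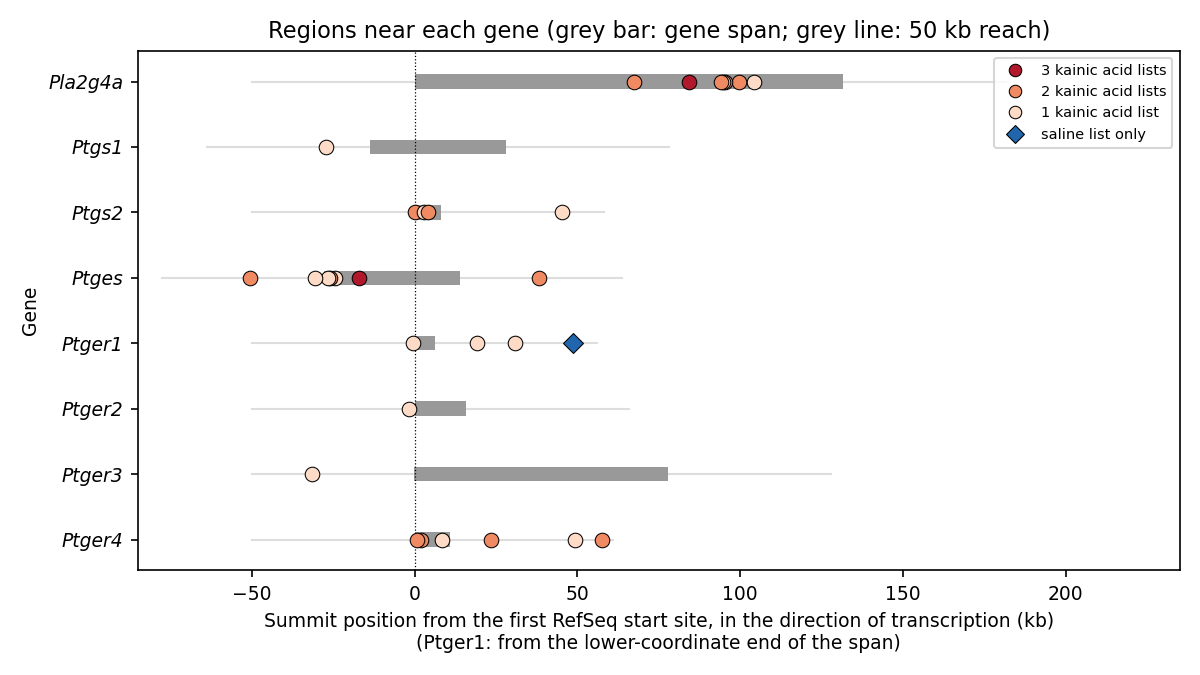
Positions of all 31 regions near the 8 genes. The horizontal axis is the distance of the region's summit in kb from the first RefSeq start site, in the direction of transcription (for Ptger1, from the lower-coordinate end), grey bars are gene spans, grey lines the 50 kb reach, and colours give the number of kainic acid lists with a peak. The regions of Pla2g4a lie deep inside the gene, those of Ptges lie mostly upstream of its start, and Ptgs2 and Ptger4 have regions at or just after the start.

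Each of the 6 libraries gave its own peak list. The kainic acid lists held 15009, 63197 and 29650 peaks in replicates 1, 2 and 3, and the saline lists held 7, 3277 and 2, so saline replicates 1 and 3 could hardly have a peak near any given gene. The authors' fold of a peak is its height over a local background, and the control behind that background is not stated. Folds are not scaled between libraries, so they are given by their rank within a list. A percentile of 0 is the highest fold and 100 the lowest. Regions are numbered along the chromosome for each gene. The number of reads over a summit was inferred from the deposited fold and p-value. It ranged from 11 to 49 for the 48 peaks near the 8 genes, over backgrounds of 2.71 to 11.4 reads, and counting error alone is therefore wide. Peak lists carry no RNA level, and the labelled tissue could not be checked by marker expression. A repeated region lay within 50 kb of 7 of 8 hippocampal neuron genes (such as Prox1, Camk2a and Slc17a7), of 3 of 4 genes each for astrocytes (such as Gfap), microglia (such as Cx3cr1) and endothelium (such as Cldn5), and of 2 of 4 for oligodendrocytes (such as Mbp). The share over all protein-coding genes was 62.7%, so these counts do not tell cell types apart.

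Peaks near the 8 genes numbered 4, 29 and 14 in kainic acid replicates 1, 2 and 3 and 0, 1 and 0 in saline replicates 1, 2 and 3. Group means came to 15.7 ± 12.6 (SD, n = 3) and 0.333 ± 0.577 (SD, n = 3), a difference of 15.3 peaks. Every kainic acid list held more than every saline list. List length differed between the groups in the same direction. With each kainic acid list cut to its 15009 peaks of highest −log10 q, the length of the shortest, the difference was 6.33 peaks. The saline lists kept their own, shorter lengths in this comparison. As a share of the list, these peaks made up 0.0267% of kainic acid replicate 1 (95% Clopper-Pearson interval 0.00726 to 0.0682), 0.0459% of replicate 2 (0.0307 to 0.0659) and 0.0472% of replicate 3 (0.0258 to 0.0792). In saline replicate 2 the share was 0.0305% (0.000773 to 0.170), inside the range of the kainic acid lists. These intervals cover counting error only.

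**Figure D2:**
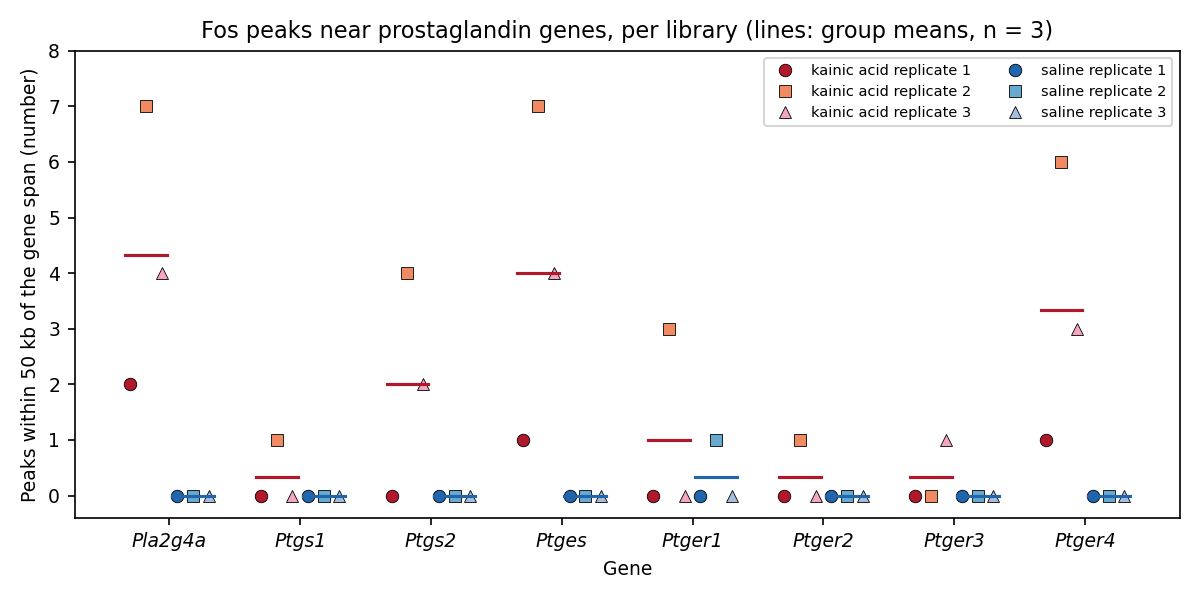
Number of peaks within 50 kb of each gene in each library. The vertical axis counts peaks, symbols are libraries, and horizontal lines are group means (n = 3). Kainic acid replicate 2, the longest list, has the most peaks near every gene but Ptger3, and all saline symbols are at 0 except saline replicate 2 at Ptger1.

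Gene by gene, every kainic acid list exceeded every saline list for 3 of the 8 genes, Pla2g4a, Ptges and Ptger4. The same held for 33.5% of all protein-coding genes (27% of those with spans under 50 kb and 55.5% of longer ones), so the count near these genes is close to the background. For each of the 3 the two-sided exact permutation test over the 6 libraries gave p = 0.1, the smallest value that 3 against 3 allow. No gene could pass 0.05 in this design. For Ptgs2 the exact permutation p was 0.4, because kainic acid replicate 1 had no peak there, and for Ptgs1, Ptger1, Ptger2 and Ptger3 it was 1.

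Replicate support differed between the genes. The 31 regions near the 8 genes comprised 2 found in every kainic acid list, 13 found in a pair of them, 15 found in 1, and 1 found in a saline list only. Each of the 8 genes had a peak of some kainic acid list, as did 78% of all protein-coding genes (73.7% with spans under 50 kb and 92.5% of longer ones). No region held both a kainic acid and a saline peak. The 15 repeated regions belonged to 4 of the 8 genes, against 62.7% of all protein-coding genes (57.3% with spans under 50 kb and 81.1% of longer ones, here Pla2g4a and Ptger3). With a reach of 10 kb it was again 4 of 8, against 40%. With 100 kb it was 5 of 8, with Ptger1 added, against 74.7%. None of the 4 genes had a saline peak in reach, and 36.7% of all genes had a repeated region and no saline peak (32.3% of short and 51.9% of long genes). A region in every kainic acid list lay near 2 of the 8 genes, against 42.5% of all genes (36.7% of short and 62.2% of long genes). These shares lay on both sides of the background and had no test. All 15 repeated regions had a peak in kainic acid replicate 2, 13 in replicate 3 and 4 in replicate 1. Without replicate 2 only 2 regions remained counted, without replicate 3 it was 4, and with equal numbers of peaks from each kainic acid list it was 3.

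**Figure D3:**
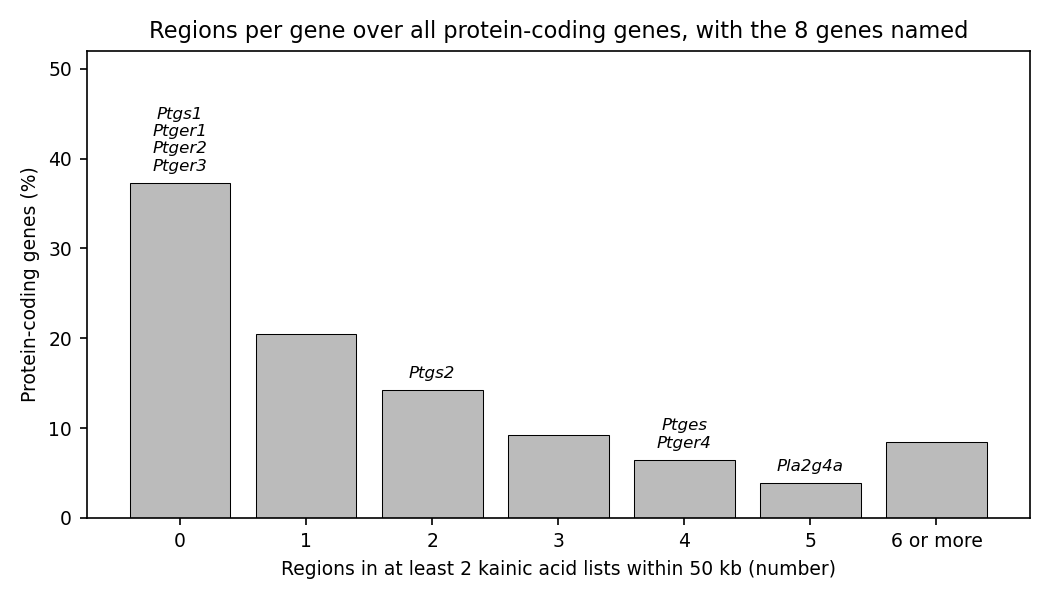
Share of all 21900 protein-coding genes by their count of repeated regions within 50 kb, with the 8 genes named above their bars. Ptgs1, Ptger1, Ptger2 and Ptger3 fall in the bar at 0, which holds 37.3% of genes, and Pla2g4a has 5 regions.

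Pla2g4a (gene ID 18783, chromosome 1, 149829618 to 149961290, minus strand, 132 kb) had the most repeated regions. Kainic acid replicates 1, 2 and 3 held 2, 7 and 4 peaks there, and the 3 saline lists held 0. The mean was 4.33 ± 2.52 (SD, n = 3) with kainic acid. It had 5 repeated regions, and 12.3% of protein-coding genes had as many or more, although the gene is long and long genes offer more room. The number fell to 1 without replicate 2, to 2 without replicate 3 and to 1 with equal numbers of peaks from each kainic acid list, where Ptges and Ptger4 also had 1. When summits had to lie within 200 bp it was 3, below the 4 each of Ptges and Ptger4. All 7 of its regions lay inside the gene span. No region of any list lay wholly in the 139 kb of chromosome between Pla2g4a and Ptgs2. The region over the Ptgs2 start reached into the end of that stretch. The gene table gives no exons, so exonic and intronic positions could not be told apart.

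The region that ranked best of all 31 was region 6 of Pla2g4a (149876474 to 149877270), 45.5 kb downstream of the nearer of 2 annotated start sites and 84.4 kb downstream of the other. Its fold was 7.45, 8.74 and 7.47 in kainic acid replicates 1, 2 and 3. These were ranks 988, 5182 and 1844, and percentiles of 6.61, 8.24 and 6.26. The inferred pileups were 39, 44 and 49 reads over backgrounds of 4.37, 4.15 and 5.70 reads, and the 3 summits fell within 49 bp of each other. The percentile, though not the rank number, was thus alike in all 3 kainic acid libraries, and no saline list had a peak there. The place of this region did not rest on 1 library: its mean percentile was 7.03, and 6.43 to 7.42 when any 1 kainic acid library was left out.

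Another 5 regions of Pla2g4a lay close together between 149856632 and 149867916, some 55.1 to 65.5 kb downstream of the nearer start site. Region 5 (149866954 to 149867916) had folds of 8.34 in kainic acid replicate 2 and 3.53 in replicate 3, percentiles of 9.62 and 70.2, and no peak in replicate 1. Region 3 had folds of 5.54 and 4.22 in replicates 2 and 3. Region 2 was in replicates 1 and 2, with folds of 4.17 and 3.84. Region 1 was called in replicate 2 only, in spite of a fold of 7.77 and 39 inferred reads. Of these 5, the percentile differed most between lists for region 5.

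Ptgs1 (gene ID 19224, chromosome 2, 36216742 to 36258593, plus strand) had 1 peak in kainic acid replicate 2 and none in the other 5 libraries. It spanned 36202937 to 36203270, outside the gene and 27.3 kb upstream of the start site, with a fold of 3.47, a percentile of 83.2 and 15 inferred reads. The gene nearest to it was Mrrf. At least 1 peak of replicate 2 lay within 50 kb of 77.4% of protein-coding genes, so a single peak of that list is common.

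Ptgs2 (gene ID 19225, chromosome 1, 150100031 to 150108234, plus strand) had 0, 4 and 2 peaks in kainic acid replicates 1, 2 and 3 and 0 in each saline list. The groups overlapped at 0. The mean was 2.00 ± 2.00 (SD, n = 3) with kainic acid. It had 2 repeated regions, a number reached or passed by 42.3% of protein-coding genes, and its nearest protein-coding neighbour was Pla2g4a, 139 kb away. The number of repeated regions fell to 0 without replicate 2, without replicate 3, or with equal numbers of peaks from each kainic acid list. It fell to 1 with −log10 q of at least 5, and to 1 when summits had to lie within 200 bp.

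The region over the Ptgs2 start, shown above as sequence, had folds of 3.19 in replicate 2 and 2.10 in replicate 3. Its percentiles were 90.2 and 99.9, near the bottom of both lists, and its −log10 q was 5.14 and 1.66. The low folds came with high inferred backgrounds. There were 26 reads over 7.47 in replicate 2 (95% Poisson interval of the pileup 17.0 to 38.1) and 25 reads over 11.4 in replicate 3 (16.2 to 36.9). The summits, at 150100024 and 150100065, lay on either side of the overlapping TGACGT and CACGTG letters at 150100043 to 150100052. A start site inside a repeated region was found for 3.64% of the 17492 protein-coding genes with a RefSeq start, and for Ptgs2 alone of the 7 genes with one. A start site inside a saline replicate 2 peak was found for 5.25% of the same genes and for none of the 7.

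The stronger Ptgs2 region, region 3 (150103954 to 150104723), lay inside the gene 4.26 kb downstream of the start. It had folds of 5.79 in replicate 2 and 4.46 in replicate 3, percentiles of 25.5 and 36.3, and 22 and 23 inferred reads. The 2 summits were 260 bp apart, against 49 bp for region 6 of Pla2g4a, and whether they mark 1 site was not tested. When summits had to lie within 200 bp, region 3 no longer counted as repeated. Further peaks of replicate 2 alone lay 2.92 kb downstream of the start, with a fold of 3.93, and 45.1 kb downstream, beyond the gene's end, with a fold of 4.86. Kainic acid replicate 1, the shortest of the treated lists, had none of the 4.

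The pattern of Ptgs2 over the 6 lists, 0, 4, 2, 0, 0 and 0 peaks, was not unique to it. Genes were compared by the sum over the 6 lists of absolute differences in peak number. Of the 21900 protein-coding genes, 107 others were at 0, which is the closest possible. None of them was among the other pathway genes, and the first 3 by alphabet were 2610318N02Rik, A930017K11Rik and Adgra3.

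Ptges (gene ID 64292, chromosome 2, 30889471 to 30931020, minus strand) had 1, 7 and 4 peaks in kainic acid replicates 1, 2 and 3 and 0 in each saline list. The mean was 4.00 ± 3.00 (SD, n = 3). It had 4 repeated regions, and 18.8% of protein-coding genes had as many or more. The number fell to 1 without replicate 2, without replicate 3, or with equal numbers of peaks. The RefSeq start site of the promoter table is at 30903297, well inside the span. Regions 2 to 5, upstream of that start, are therefore still within the annotated gene. Regions 6 and 7 lie further upstream, outside the span.

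Region 2 of Ptges (30920050 to 30920751) was the other region in all 3 kainic acid lists, 17.2 kb upstream of that start. Its fold was 5.52, 10.8 and 5.76 in replicates 1, 2 and 3, at percentiles of 22.3, 4.21 and 16.1. The inferred pileups were 22, 39 and 28 reads over 3.17, 2.71 and 4.03, with summits within 92 bp. This was the highest fold of any peak near the 8 genes. Region 4 (30928812 to 30929462), 25.9 kb upstream of the start, had folds of 7.20 in replicate 2 and 3.58 in replicate 3, with summits 23 bp apart. Beside it, region 5 (30929675 to 30930087) had a fold of 8.44 and 35 reads in replicate 2 and no peak in the other libraries.

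The 2 further repeated regions of Ptges lay over other genes. Region 1 (30864966 to 30865551), with folds of 6.11 and 4.67 in replicates 2 and 3, overlapped Prrx2. Region 7 (30953562 to 30954017), with folds of 4.27 and 4.18, overlapped Tor1b. Within 10 kb of the span, Ptges kept 2 of its 4 regions.

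**Figure D4:**
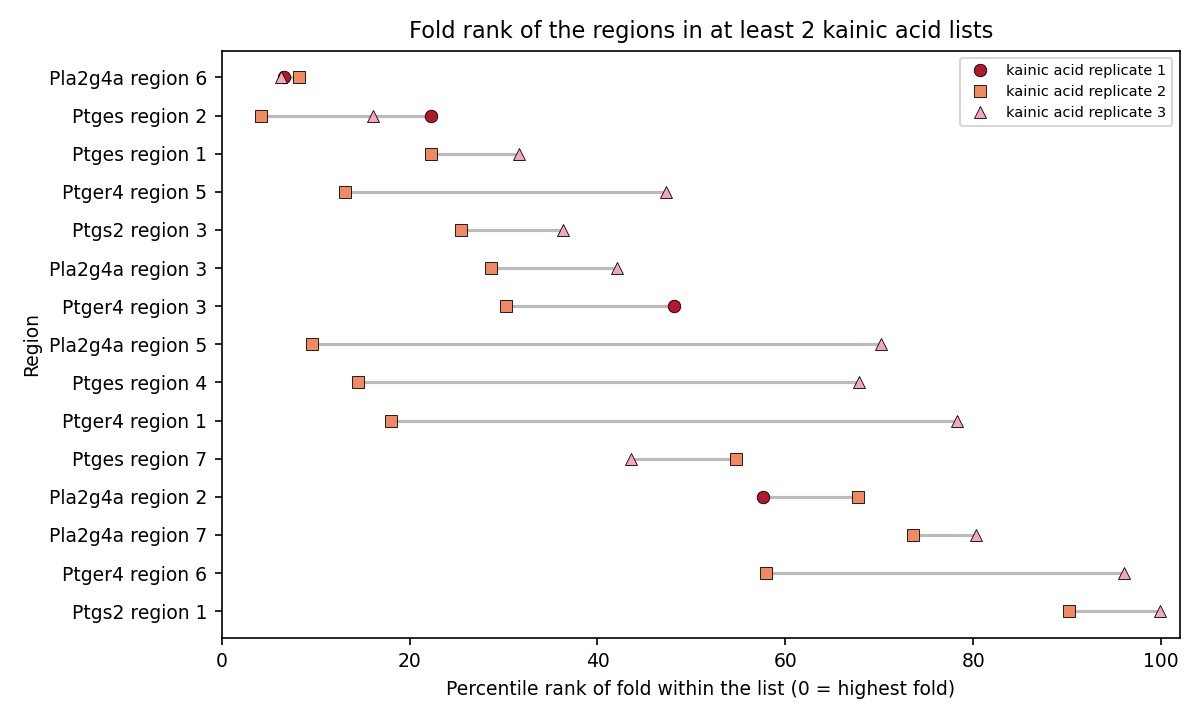
Percentile rank of fold (0 is the highest fold of a list) for the 15 repeated regions, 1 symbol per library, joined by a line and ordered by mean rank. Region 6 of Pla2g4a has similar percentiles in all 3 libraries, between 6.26 and 8.24, and the Ptgs2 start region is last.

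Ptger4 (gene ID 19219, chromosome 15, 5233399 to 5244187, minus strand) encodes EP4, a receptor that raises cyclic AMP. Within 50 kb it was the only 1 of the 4 receptor genes with a repeated region, which 62.7% of protein-coding genes had. Kainic acid replicates 1, 2 and 3 held 1, 6 and 3 peaks and the saline lists 0 each, a mean of 3.33 ± 2.52 (SD, n = 3) with kainic acid. It had 4 such regions, as many as Ptges, and none in all 3 lists.

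A pair of them lay just after the Ptger4 start site at 5244187. Region 5 (5242042 to 5242490), 1.86 kb downstream, had folds of 7.50 and 4.08 in replicates 2 and 3, at percentiles of 13.1 and 47.3, with 31 and 24 reads and summits 39 bp apart. Region 6 (5243290 to 5243780), 0.666 kb downstream, had folds of 4.15 and 2.69 at percentiles of 57.9 and 96.1. Neither covered the start site itself. The other 2 lay 12.5 and 46.4 kb beyond the gene's 3′ end, and both were nearest to Ttc33: region 3 (5220520 to 5220898), in replicates 1 and 2 with folds of 4.45 and 5.40, and region 1 (5186348 to 5186994), in replicates 2 and 3 with folds of 6.64 and 3.34. Without replicate 2 no region of Ptger4 was left, and without replicate 3 only 1 was.

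The other receptor genes, Ptger1, Ptger2 and Ptger3, had no repeated region within 50 kb, as was so for 37.3% of protein-coding genes. This contrast with Ptger4 depended on the reach. Within 100 kb Ptger1 had 3 repeated regions, and Ptger2 and Ptger3 still had 0. Ptger1 (gene ID 19216, chromosome 8, 83666644 to 83672756), whose product EP1 acts through calcium, had 0, 3 and 0 peaks in the kainic acid lists and 0, 1 and 0 in the saline lists. All 3 kainic acid peaks came from replicate 2, and the groups overlapped. The saline replicate 2 peak (83715243 to 83715519) was 42.5 kb from Ptger1 and overlapped Ddx39a, with a fold of 4.08, a percentile of 53.3 and 29 reads over 6.36. A saline peak within 50 kb was present for 30.2% of protein-coding genes (29.8% with spans under 50 kb and 31.8% of longer ones) and for 1 of these 8, and nearly all saline peaks came from that 1 library.

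Ptger2 (gene ID 19217, chromosome 14, 44988111 to 45003820, plus strand) encodes EP2, which like EP4 raises cyclic AMP. It had 1 peak, in kainic acid replicate 2, at 44986172 to 44986523. This was 1.81 kb upstream of the start, with a fold of 5.82, a percentile of 25.3 and 29 reads over 4.15. Ptger3 (gene ID 19218, chromosome 3, 157566821 to 157644758, plus strand) encodes EP3, which lowers cyclic AMP. It had 1 peak, in kainic acid replicate 3, 31.6 kb upstream of the start (157535103 to 157535412), with a fold of 3.26 and a percentile of 81.5, overlapping Zranb2. It was the only gene of the 8 without a peak of replicate 2, which 77.4% of genes had.

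The 15 repeated regions were set beside all 26862 such regions of the genome. The median of the mean percentiles was 39.9 for the 15 and 42.2 for all, so their ranks were about average. Of the 15, 2 (13.3%) were in all 3 lists, against 44.4% of all. These are descriptions without a test. Of the 15, 11 lay inside or over the span of their gene and had it as the nearest protein-coding gene, and 4 were nearer to Prrx2, Tor1b or Ttc33. Just inside the reach was Ptger4 region 1 at 46.4 kb. Just outside it were a region of saline replicate 2 alone, 51.1 kb from Ptges, a region of replicate 2 alone, 56.2 kb from Ptgs2 with a fold of 4.01, and another 57.1 kb from Ptger1 with a fold of 3.75. For Ptger4 the nearest outside was a region of all 3 kainic acid lists, at 77.5 kb, with folds of 3.36, 5.42 and 3.44.

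The rest of the pathway was taken from a list of 32 genes for arachidonic acid release, other prostanoid synthases and receptors, transport, breakdown and lipoxygenases, of which 31 were found as protein-coding genes. A repeated region lay within 50 kb of 23 of the 31 (74.2%, against 62.7% of all genes), and a region in every kainic acid list lay near 14, against 42.5% of all genes. Every kainic acid list exceeded every saline list for 11 of the 31, against 33.5% of all genes. The 5 with the best mean percentiles were Ptgfrn (3.15), Tbxa2r (3.85), Abcc4 (5.11), Ptgir (7.46) and Ptges2 (7.76), each in all 3 kainic acid lists.

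In Ptgfrn, an inhibitor of the prostaglandin F2α receptor, the region (chromosome 3, 101047542 to 101048520) lay inside the gene with folds of 8.22, 11.8 and 9.80 in replicates 1, 2 and 3. In Abcc4, a transporter that exports prostaglandins, it also lay inside the gene (chromosome 14, 118565909 to 118566823), with folds of 6.32, 19.7 and 10.0. The regions near the thromboxane receptor gene Tbxa2r, the prostacyclin receptor gene Ptgir and the synthase gene Ptges2 were nearest to other genes, Pip5k1c, Pnmal2 and Slc25a25. Saline replicate 2 had a peak within 50 kb of 11 of the 31, against 30.2% of all genes: Ptgfrn, Tbxa2r, Ptges2, Pla2g6, Tbxas1, Mgll, Alox15, Slco2a1, Ptgr2, Ptges3 and Ptgr1.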

How the data were processed

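Per the submitters' processing notes, the tools named are Trim Galore 0.6.4, Bowtie2 2.3.4.3, MACS2 and deepTools 3.5.0, with build mm10. The peak names add a mapping quality of 30 and merging. Cutoff and control for calling are not given in the sources used here. The authors deposited 1 peak list per library, with a fold (a linear ratio of peak to local background), −log10 p, −log10 q and a score, which is 10 times −log10 q without its decimals. None is scaled between libraries. The summit offset is in bp. The input library was not used here.

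Peaks sharing 1 bp or more, across the 6 lists, formed 1 region. Distances run from the merged region to gene spans of the RefSeq table of GRCm38.p6, the assembly that mm10 names. All 8 genes were found by symbol, and 7 had a promoter entry. The pileup (k) and background (λ) that give both the deposited fold, as (k + 1)/(λ + 1), and the Poisson p were found by a scan, and 48 of 48 peaks had 1 solution within 0.001 in −log10 p. This model is inferred. Tested on simulated data, the scan found 5000 of 5000 pileups, and merging found 3290 of 3290 repeated regions. The E-box, C/EBP and shortened response element motifs were chosen after reading the Ptgs2 promoter. The members and lists were chosen with earlier results of these data known. Named were the 8 genes, their regions in all 3 lists, of best rank, nearest the start or with a saline peak, and up to 5 pathway genes by rank plus those with a saline peak. Python 3.11.15, pandas 2.3.3 and scipy 1.17.1 were used. The positions and folds of the kainic acid peaks near Ptger1 are not reported here.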

Additional observations from a re-analysis of the deposited data

How the results depend on the processing

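The 8 genes had 15 repeated regions. It was 2 with −log10 q of at least 10, 3 with equal numbers of kainic acid peaks, 2 when all 3 lists were required and 30 when any list sufficed, and it ran from 2 to 15 when 1 library was left out. Genes with a repeated region numbered 4, then 2 with −log10 q of at least 10, 2 for all 3 lists, 8 for any list, and 2 to 4 with 1 library left out. Fewer peaks or lists cause this by construction. Genes with more peaks in every kainic acid than in every saline list numbered 3, but 2 with a reach of 10 kb and 2 with 100 kb. Their number was 1 with −log10 q of at least 10, and 3 to 4 with 1 library left out. The difference in mean peak number was 15.3. It was 6.33 with equal numbers of kainic acid peaks, 4.67 with −log10 q of at least 10, and 8.67 to 21.2 with 1 library left out. None of these settings matched the length of the saline lists to the kainic acid lists, so the direction could hardly change. The labels do not tie equal replicate numbers to a common batch. Under the replicate block the mean difference stayed 15.3, and 3 genes had every same-numbered difference above 0, each with an exact sign-flip permutation p of 0.25, the smallest that 3 pairs allow. Counts per gene moved in 32 of 112 alternatives, 25 to fewer and 7 to more. The motif share at summits was not run, since it needs a genome sequence. Depth is not given with the lists, so a region missing from a list was not called there, which does not show it unbound.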
